A study of Mus musculus with 15 samples.

Results

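The 10 genes of a resident macrophage list, not all particular to resident cells, were followed in hearts of 3 kinds of mice: Csf1r, Adgre1, Cd68, Cd163, Mrc1, Folr2, Lyve1, Retnla, Cx3cr1 and Ccr2. They were found by gene symbol in the probe set annotation and are 10 of the 18190 genes with a probe set of their own on the array. They are read by 17 probe sets (6 genes by 1 set, 2 genes by 2, 1 gene by 3 and 1 gene by 4). A probe set is the group of short DNA probes on an Affymetrix array that reports 1 transcript region.

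RNA came from the heart apex of male mice, with 5 arrays per kind of mouse and 15 in all. B6C3F1 (B6C3F1/J) is the hybrid of a C57BL/6 mother and a C3H father. The inbred parents are C3H, of the substrain C3H/HeJ, and C57Bl/6, of C57BL/6J. C3H/HeJ is known to carry a defective Tlr4 allele, the receptor for bacterial endotoxin. Mice of all 3 groups had a radiotelemetry transmitter put into the abdomen at 7 weeks of age, were housed singly and were killed 2 to 2.5 weeks later, at 9 to 10 weeks. They received no other treatment, and mice without surgery were not analysed here. Each array was made from 50 ng of RNA amplified before labelling. The labels name the arrays as separate mice, so the spread between arrays is that between animals plus that of the assay.

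Macrophages of the heart are partly seeded before birth and renewed in place, and partly replaced from blood monocytes. Their survival depends on CSF1 and IL-34 acting through the receptor CSF1R. Resident cells are known for LYVE1, FOLR2, MRC1 and CD163, surface receptors for hyaluronan, folate, mannosylated glycoproteins and haemoglobin. Cells that arrive from blood carry the chemokine receptor CCR2, and cells with CX3CR1 answer to fractalkine, its membrane-bound ligand. Retnla encodes RELMα, a secreted protein of macrophages exposed to IL-4 or IL-13.

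The promoters of 3 members whose levels differed between the strains are shown from RefSeq (GRCm38.p6), from 250 bases before to 50 bases after the gene start, 5′ to 3′ on the coding strand. Capitals mark 3 motifs found by a search of both strands: the PU.1 core GAGGAA (its reverse complement included), the STAT6-type motif (TTC and GAA with any 4 bases between them) and the TATA box TATAAA. PU.1 is the factor that sets up macrophage identity, and STAT6 carries the signal of IL-4 and IL-13.
Retnla, chr16:48842359-48842658, plus strand: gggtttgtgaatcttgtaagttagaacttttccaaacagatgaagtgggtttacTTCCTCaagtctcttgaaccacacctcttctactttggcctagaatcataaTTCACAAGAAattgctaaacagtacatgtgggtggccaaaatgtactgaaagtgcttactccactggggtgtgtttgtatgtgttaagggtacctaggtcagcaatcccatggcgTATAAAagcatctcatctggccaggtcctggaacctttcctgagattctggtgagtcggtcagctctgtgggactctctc
Cd68, chr11:69666121-69666420, minus strand: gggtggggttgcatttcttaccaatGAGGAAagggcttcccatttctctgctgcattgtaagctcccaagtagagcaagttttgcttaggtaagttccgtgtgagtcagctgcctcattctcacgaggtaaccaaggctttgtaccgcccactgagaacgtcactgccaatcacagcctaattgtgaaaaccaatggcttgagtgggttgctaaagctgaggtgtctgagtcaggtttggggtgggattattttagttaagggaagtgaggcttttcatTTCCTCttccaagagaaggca
Cx3cr1, chr9:120068247-120068546, minus strand: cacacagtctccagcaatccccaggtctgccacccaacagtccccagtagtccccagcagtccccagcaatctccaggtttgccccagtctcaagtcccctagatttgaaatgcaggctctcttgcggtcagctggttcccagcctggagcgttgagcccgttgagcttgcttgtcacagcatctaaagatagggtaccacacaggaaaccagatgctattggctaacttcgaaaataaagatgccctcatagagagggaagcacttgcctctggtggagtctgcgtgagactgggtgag
Of 8 promoters found for 7 of the members, 3 held the PU.1 core, against 28.3% of 32851 mouse promoters of the same length. The STAT6-type motif was in 1 of the 8, that of Retnla at -145, against 6.95% of all promoters. The TATA box was also in 1 of the 8, again Retnla, at -30, against 13.6% of all. A match is only a run of letters, and none of these matches was tied to a strain difference.

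Values are given as log2(signal + 16), the deposited array signal returned to its linear scale, raised by 16 and logged again. On that scale the signal of low genes changes less than their true level. Each gene was read from its brightest probe set. A gene is said to rise or fall where limma's adjusted p (Benjamini-Hochberg over 12175 genes) was under 0.05. The tissue was bulk RNA, in which fewer macrophages and less RNA per macrophage cannot be told apart. C3H replicate 4 stood apart in its poly-A spike controls, with a mean log2 of 10.34, while the C3H arrays averaged 9.19 ± 0.65 (SD, n = 5), B6C3F1 arrays 8.54 ± 0.12 and C57Bl/6 arrays 8.58 ± 0.59. C3H replicate 4 was the lowest C3H array for 6 of the 10 members, against 22.8% of all genes. C57Bl/6 replicate 5 stood apart the other way, at 7.58 against 8.58 to 9.03 on the other C57Bl/6 arrays, and was the highest C57Bl/6 array for 3 members and the lowest for 0. Calls that were lost or gained without either array are named below.

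Across the members, the hybrid held the highest mean for 6 of 10 genes (31.5% of all genes) and C3H the lowest for 7 of 10 (38.7% of all genes). In C3H hearts against C57Bl/6 hearts, Adgre1 and Cx3cr1 fell and Cd68 rose, so that 3 of 10 members passed the test. Of all genes 16.9% passed, 7.83% higher and 9.03% lower, and no member's arrays were free of overlap, as were those of 11.8% of all genes. In B6C3F1 hearts against C57Bl/6 hearts only Retnla rose among the 10 members, and 4.34% of all genes passed, 2.31% higher and 2.04% lower. In B6C3F1 hearts against C3H hearts, Retnla, Cx3cr1 and Csf1r rose, where 6.95% of all genes passed, 3.99% higher and 2.96% lower. Against the midpoint of the parents, Retnla alone of the 10 rose in the hybrid, where 0.698% of all genes passed, 0.534% higher and 0.164% lower. All 10 members passed the filter on dim genes, and 14 of their 17 probe sets did. Cx3cr1 passed it only through the other strains, as its C3H mean of 5.94 was below the filter (6.03). Its calls are in the counts for C3H against C57Bl/6 and for B6C3F1 against C3H. Under the filter at the 60th percentile Cx3cr1 and Ccr2 were not tested, and 2 of 8 members passed in each of these comparisons. Larger shares of all genes passed under that filter than the 16.9% and 6.95% of the main filter. Those main shares are therefore not the background for the 8 members. The members' median difference was -0.25 log2 for C3H minus C57Bl/6, 0.18 for B6C3F1 minus C57Bl/6, 0.30 for B6C3F1 minus C3H and 0.33 for B6C3F1 minus the midpoint. The medians of all genes in the same comparisons were -0.02, 0.01, 0.03 and 0.02. Without C3H replicate 4 the members' median was -0.17 for C3H minus C57Bl/6, 0.18 for B6C3F1 minus C3H and 0.24 against the midpoint, and 1 member in place of 3 was called in B6C3F1 against C3H. With the poly-A controls as a term in the fit these medians were -0.10, 0.02 and 0.13, with 5 members above and 5 below 0 in B6C3F1 minus C3H, and 1 member was called in each of the strain comparisons with C3H (Cd68 against C57Bl/6, and Retnla in the hybrid). The B6C3F1 comparisons share their B6C3F1 arrays, and those with C57Bl/6 or C3H share the parent arrays, so these counts are not independent.

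**Figure D1:**
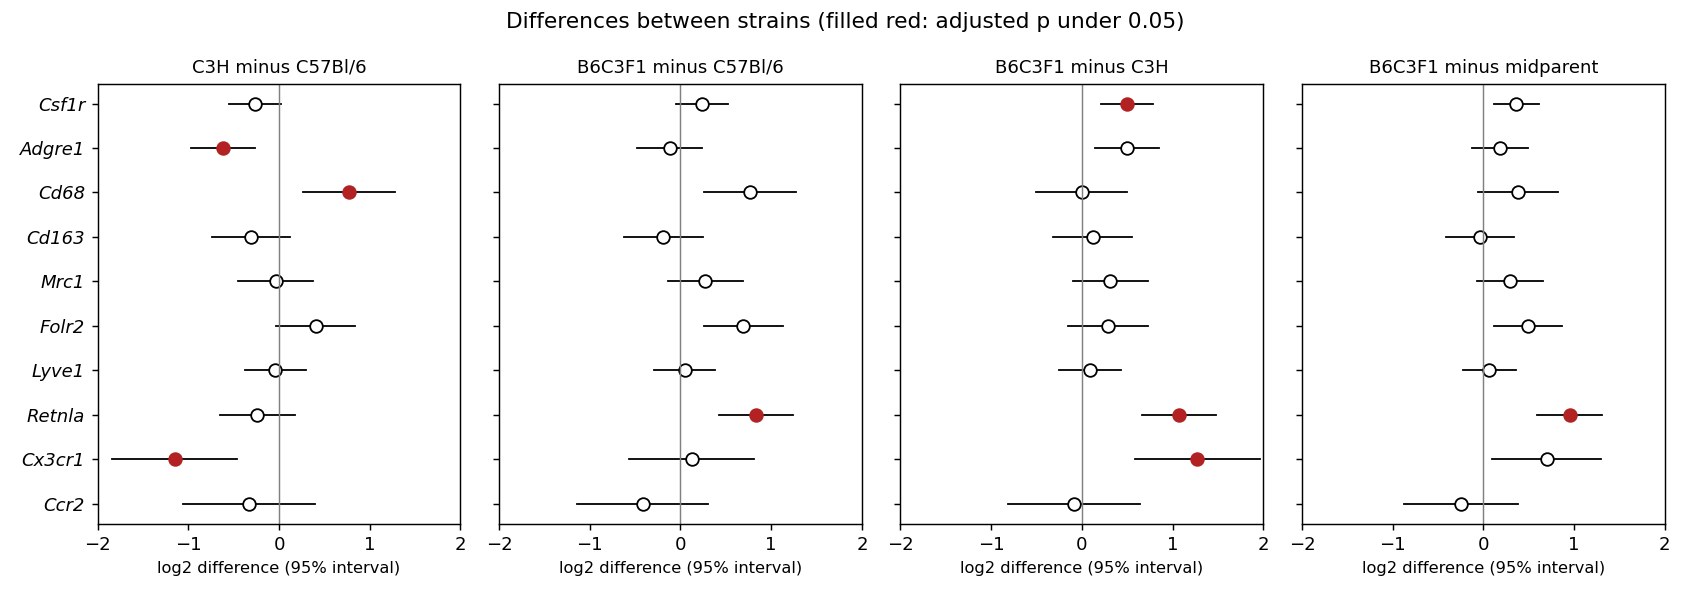
Log2 difference of each member gene in 4 comparisons, one panel each, with its 95% interval; the x axis is the difference in log2(signal + 16) and filled red points passed the test. The red points are Adgre1, Cd68 and Cx3cr1 between C3H and C57Bl/6, Retnla between B6C3F1 and C57Bl/6, Csf1r, Retnla and Cx3cr1 between B6C3F1 and C3H, and Retnla against the midpoint of the parents.

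Retnla, the secreted member, was the member that passed the test in the hybrid against both parents. The B6C3F1 arrays read 8.65, 8.62, 8.40, 8.87 and 8.62 log2(signal + 16). The C3H arrays read 7.54, 7.20, 8.02, 7.21 and 7.84, and the C57Bl/6 arrays 7.91, 7.75, 7.38, 8.40 and 7.55. All 5 hybrid arrays were above every C3H array, a separation in either direction found for 6.82% of all genes. Of the 5 hybrid arrays, 4 were above every C57Bl/6 array. The difference between B6C3F1 and C3H was 1.07 ± 0.20 log2 (SE), a 2.10-fold higher signal with an interval of 1.58 to 2.79 and an adjusted p of 0.00193. Against C57Bl/6 the hybrid was 1.78-fold higher (interval 1.34 to 2.37, adjusted p = 0.0207). Against the midpoint of the parents it was 1.93-fold higher (interval 1.51 to 2.47, adjusted p = 0.00817). The parents themselves differed by -0.24 ± 0.20 (C3H minus C57Bl/6), which did not pass the test (adjusted p = 0.450). The call against C57Bl/6 was lost without B6C3F1 replicate 4 (adjusted p = 0.0596), C57Bl/6 replicate 3 (0.0657) or C57Bl/6 replicate 5 (0.0508), while the other calls held without any 1 array.

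Retnla is also known from fat tissue. Of 6 adipocyte markers, 4 were matched by symbol to a probe set of their own, while Plin1 and Cfd were not matched. All 4 lay below the level at which genes were tested, Adipoq among them. Their summed linear signal was 61 to 164 in B6C3F1, 42 to 95 in C3H and 59 to 215 in C57Bl/6 hearts. Adipoq read 5.40 to 6.25 log2(signal + 16) in B6C3F1, 4.27 to 5.25 in C3H and 5.08 to 6.54 in C57Bl/6 hearts. It was thus higher in the hybrid than in C3H without overlap, as Retnla was, and overlapped between the hybrid and C57Bl/6. The other matched markers overlapped between the hybrid and C3H. Their B6C3F1 and C3H means were 4.90 and 4.95 for Cidec, 4.70 and 4.84 for Retn, and 4.76 and 4.74 for Lep. The part of fat tissue in the Retnla result was not tested. Of 10 further genes of alternative activation and of the resistin-like family, 9 were matched by symbol and 3 were tested. No gene of that list passed in any of the 3 strain comparisons.

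Csf1r, the receptor that macrophages need to live, was higher in the hybrid than in C3H. The B6C3F1 arrays read 12.39, 12.57, 12.60, 12.32 and 12.18, the C3H arrays 11.54, 12.29, 11.91, 11.74 and 12.12, and the C57Bl/6 arrays 11.89, 12.38, 12.25, 11.98 and 12.42. Every hybrid array was above the mean of C3H, and 4 of 5 were above all C3H arrays. In B6C3F1 hearts Csf1r was 1.41-fold higher than in C3H hearts (0.50 ± 0.14 log2, adjusted p = 0.0321). A second probe set gave 0.51 ± 0.12 with an adjusted p of 0.0116 over 20964 probe sets, of which 5.83% passed, and the remaining set gave 0.17 with an adjusted p of 0.531. The call of the brightest set was lost without B6C3F1 replicate 1 (adjusted p = 0.0587), 2 (0.0829), 3 (0.0865) or 4 (0.0519) and without C3H replicate 1 (0.0867), 3 (0.0606) or 4 (0.0868, at a difference of 0.45). It was also lost with poly-A controls as a term (0.34, adjusted p = 0.263), on centring (0.43, adjusted p = 0.112) and without an intensity trend (adjusted p = 0.0692). The C3H minus C57Bl/6 difference of -0.26 ± 0.14 did not pass (adjusted p = 0.207).

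Cx3cr1, the fractalkine receptor, was the member with the largest difference between the parents. The B6C3F1 arrays read 7.39, 6.76, 7.85, 7.05 and 7.01, the C3H arrays 6.25, 6.50, 6.38, 5.14 and 5.44, and the C57Bl/6 arrays 7.82, 6.31, 7.48, 7.20 and 6.64. The hybrid and C3H arrays did not overlap, a separation in one direction or the other found for 6.82% of all genes. C3H and C57Bl/6 arrays overlapped, with 3 of 5 C3H arrays below every C57Bl/6 array. The C3H mean of 5.94 was below the filter for dim genes (6.03), so that the gene was tested only through its levels in the other strains. The sizes of its differences from C3H therefore depend on the low end of the array, and no fold is given. In C3H hearts Cx3cr1 was lower than in C57Bl/6 hearts (-1.15 ± 0.33 log2, adjusted p = 0.0197). In B6C3F1 hearts it was higher than in C3H hearts (1.27 ± 0.33 log2, adjusted p = 0.0232) and 0.12 above C57Bl/6 (adjusted p = 0.863). Without C3H replicate 4 the C3H minus C57Bl/6 difference was -0.95 (adjusted p = 0.0595) and the B6C3F1 minus C3H difference was 1.07 (adjusted p = 0.0667). The first call was also lost without C57Bl/6 replicate 1 (0.0623) or 3 (0.0574), and the second without B6C3F1 replicate 1 (0.0555) or 3 (0.0711). With poly-A controls as a term neither passed (adjusted p = 0.0646 and 0.102). The other, dimmer set of probes read 5.13 ± 0.50 in B6C3F1, 4.98 ± 0.77 in C3H and 5.11 ± 0.80 in C57Bl/6 (SD, n = 5 each), and was not tested.

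Ccr2, the receptor for CCL2 on monocytes and the cells that come from them, was near the floor of the array. Its brightest probe set averaged 6.44 ± 0.89 in B6C3F1, 6.53 ± 0.33 in C3H and 6.86 ± 0.35 in C57Bl/6 hearts (SD, n = 5 each), and no comparison passed the test (adjusted p between 0.515 and 0.928). The second probe set put C3H above C57Bl/6, by 0.51 ± 0.27 log2, while the brightest put it below, by -0.33 ± 0.35. The second set was not called between the parents (adjusted p = 0.236, where 15.1% of probe sets passed) or for B6C3F1 minus C3H (-0.87 ± 0.27, adjusted p = 0.0648). The remaining pair of sets lay under the filter.

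**Figure D2:**
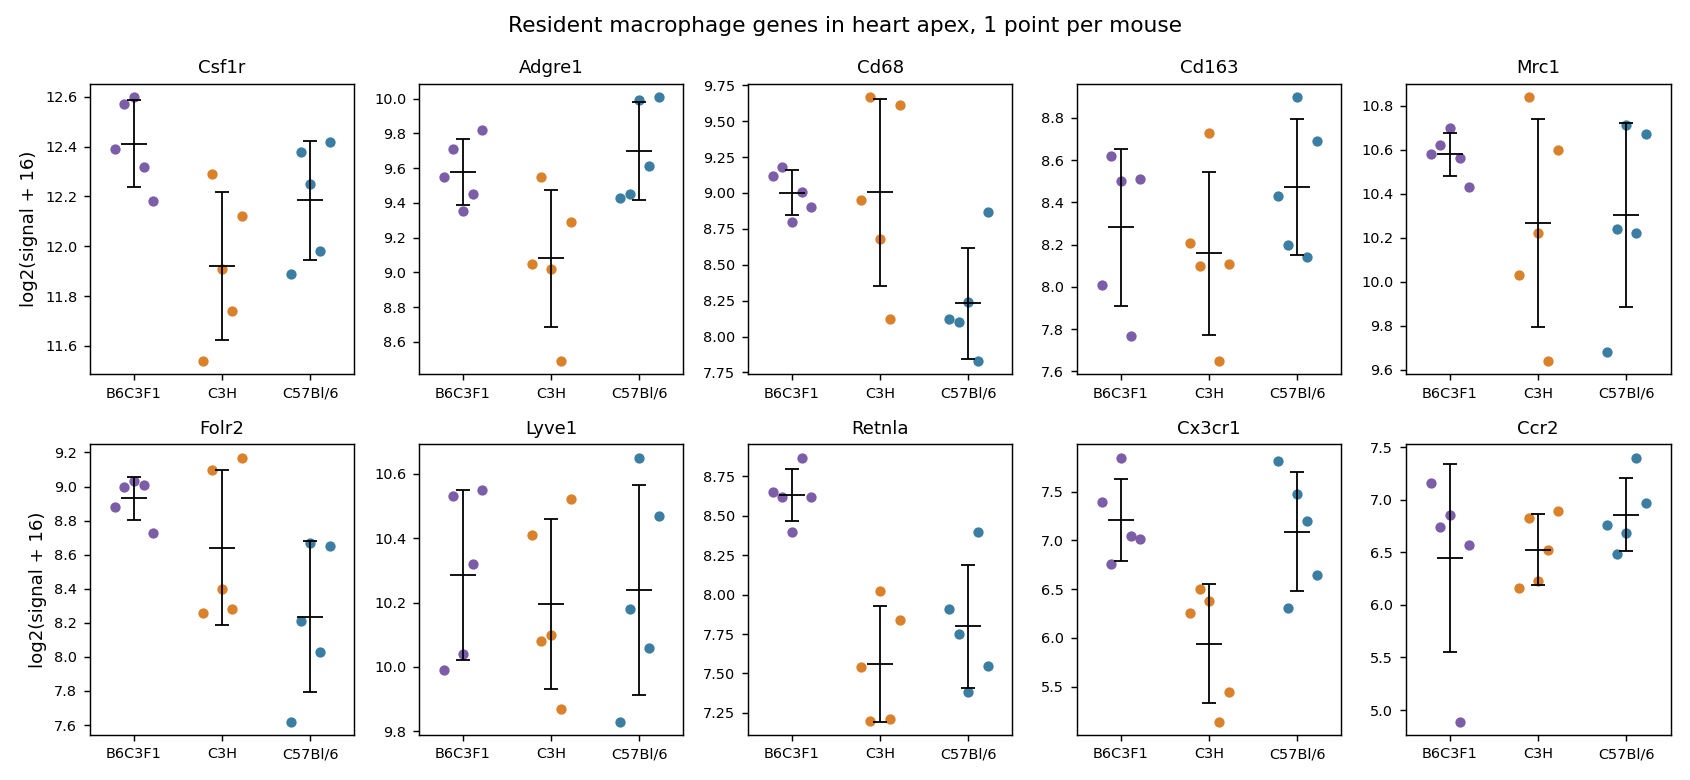
Values of the 10 member genes by array, in log2(signal + 16), with B6C3F1, C3H and C57Bl/6 side by side in each panel and the strain mean and SD drawn over the points. The Retnla panel shows the hybrid above every C3H array, with 8.40 as its lowest array and 8.40 as the highest C57Bl/6 array, and the Cx3cr1 panel shows C3H at 5.14 to 6.50, below every hybrid array.

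Adgre1, the gene of an adhesion receptor widely used to mark mouse macrophages, was lower in C3H. The C3H arrays read 9.05, 9.55, 9.02, 8.49 and 9.29, and the C57Bl/6 arrays 9.43, 9.45, 9.99, 9.61 and 10.01. Of the 5 C3H arrays, 4 lay below every C57Bl/6 array, and C3H was 1.54-fold lower (-0.62 ± 0.17 log2, adjusted p = 0.0160). The call was lost without C57Bl/6 replicate 3 (adjusted p = 0.0516) and when each array was centred on its median (-0.51, adjusted p = 0.0797). The hybrid averaged 9.58 ± 0.19 (SD, n = 5), near C57Bl/6 (adjusted p = 0.722), and its difference from C3H of 0.50 ± 0.17 did not pass (adjusted p = 0.0897). That difference did pass without C3H replicate 2 (adjusted p = 0.0341). It also passed with the 3′ to 5′ difference of Gapdh, a measure of RNA length, as a term (0.76, adjusted p = 0.00485). With poly-A controls as a term the C3H minus C57Bl/6 difference was -0.37 and did not pass (adjusted p = 0.143).

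Cd68, a lysosomal protein of phagocytes, moved the other way. The C3H arrays read 8.95, 9.67, 8.68, 8.12 and 9.61, and the C57Bl/6 arrays 8.12, 8.10, 8.24, 7.83 and 8.87. C3H was 1.71-fold higher (0.77 ± 0.24 log2, adjusted p = 0.0320), although 2 of its 5 arrays lay within the C57Bl/6 range. The B6C3F1 arrays averaged 9.00 ± 0.15, also 0.77 above C57Bl/6, which did not pass (adjusted p = 0.0735) but did in 6 of 27 alternatives. These were without C3H replicate 4 (0.0349) or C57Bl/6 replicate 5 (0.0399) and with only the 2 strains (0.0141). The others had replicate number (0.0408), the Gapdh difference (0.0236) or poly-A controls (0.0161) as a term. The hybrid's difference from C3H was -0.00. With the 3′ to 5′ difference of Gapdh, a measure of RNA length, as a term in the fit, the C3H minus C57Bl/6 difference was 0.48 and no longer passed (adjusted p = 0.151). That difference of Gapdh probe sets was 0.60 ± 0.26 log2 in C3H and 0.85 ± 0.24 in C57Bl/6 hearts, and its part in the result was not tested further. With poly-A controls as a term the difference was 1.20 and passed (adjusted p = 0.000224), and without C3H replicate 4 it was 0.99 (adjusted p = 0.00298). The call was also lost without C3H replicate 2 (adjusted p = 0.0960) or 5 (0.0865), and without C57Bl/6 replicate 1 (0.0644), 2 (0.0582), 3 (0.0594) or 4 (0.0869). Fits with only the 2 strains (adjusted p = 0.0708) or without an intensity trend (0.0578) lost it as well.

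Of the 4 endocytic and scavenger receptors, none passed the test. Folr2, the folate receptor of resident macrophages, came nearest: B6C3F1 arrays read 8.88, 9.00, 9.03, 9.01 and 8.73, C3H arrays 8.26, 9.10, 8.40, 8.28 and 9.17, and C57Bl/6 arrays 7.62, 8.21, 8.67, 8.03 and 8.65. Every hybrid array was above every C57Bl/6 array, which held for 6.51% of all genes in either direction, and the difference was 0.69 ± 0.21 (adjusted p = 0.0641). It passed in 4 of 27 alternatives: without C3H replicate 5 (adjusted p = 0.0478), with only the 2 strains (0.0353), and with replicate number (0.0490) or poly-A controls (0.0480) as a term. Mrc1, the mannose receptor, averaged 10.58 ± 0.10 in B6C3F1, 10.26 ± 0.47 in C3H and 10.30 ± 0.42 in C57Bl/6. Cd163, the haemoglobin scavenger, averaged 8.28 ± 0.37, 8.16 ± 0.38 and 8.47 ± 0.32 in the same order. Lyve1, the hyaluronan receptor that lymphatic vessels share, averaged 10.28 ± 0.27, 10.20 ± 0.26 and 10.24 ± 0.33 (SD, n = 5 each), and its C3H minus C57Bl/6 difference of -0.04 had an interval of -0.38 to 0.30. Its second probe set gave -0.11 in the same comparison. Of 6 lymphatic markers, 5 were tested and none passed, among them Pdpn, with a C3H minus C57Bl/6 difference of 0.33 ± 0.13 (adjusted p = 0.0886), and Flt4, with 0.10 ± 0.11 (adjusted p = 0.587).

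**Figure D3:**
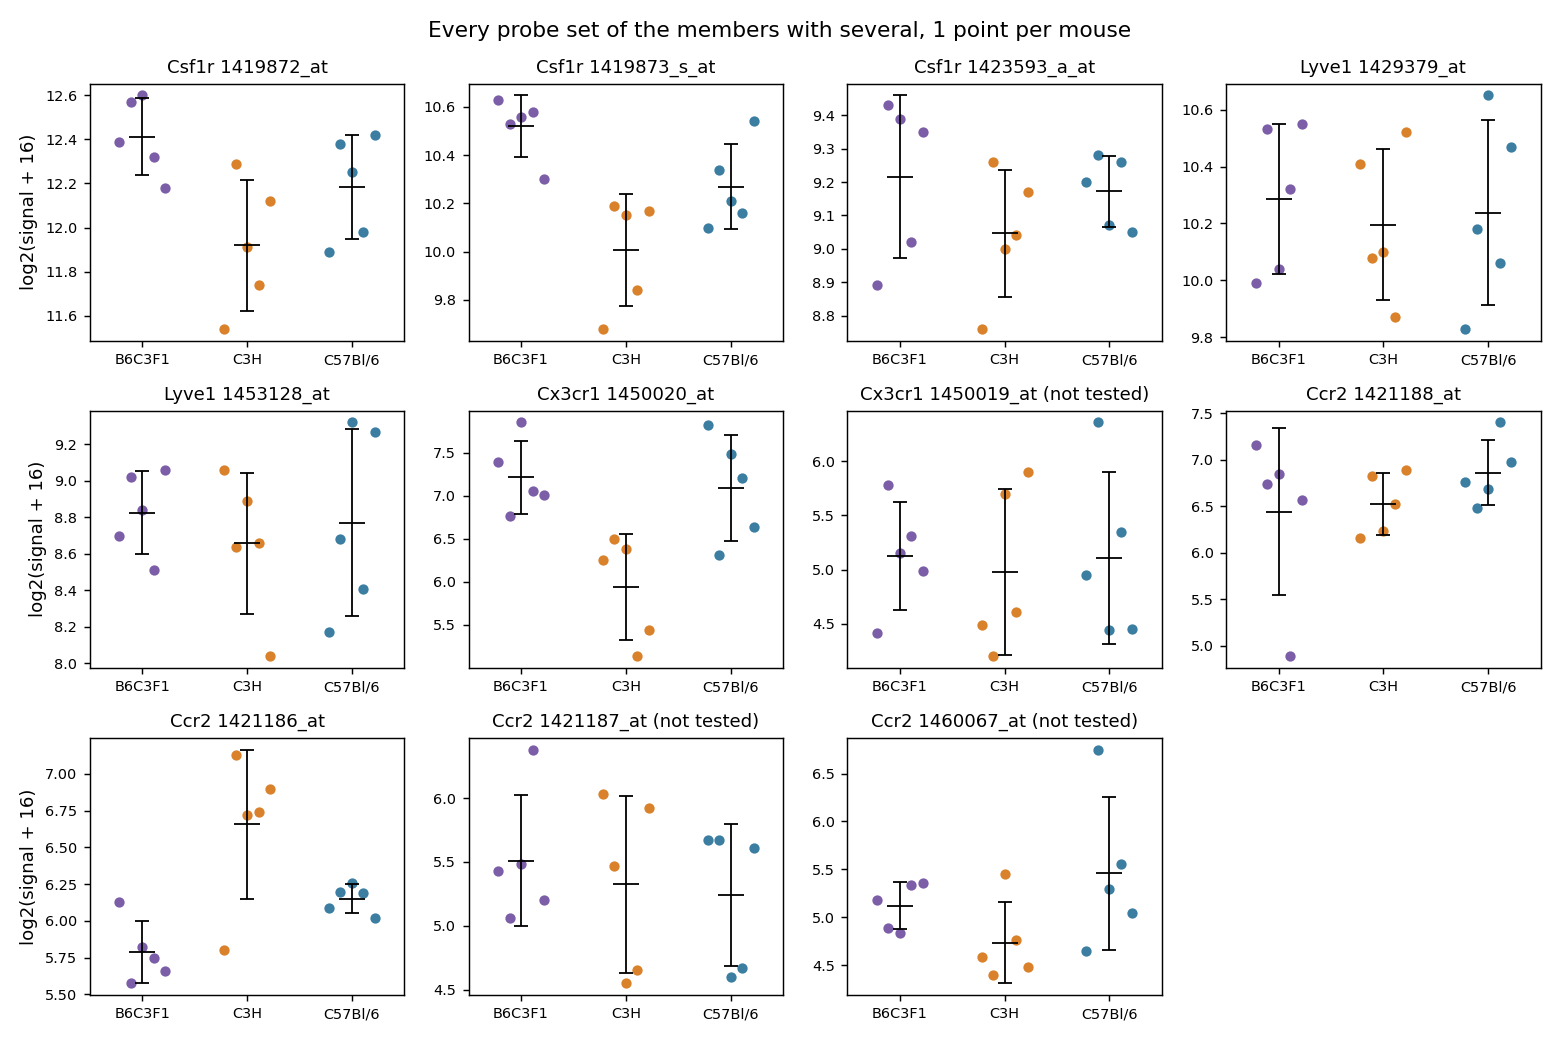
Values by array for the probe sets of members read by several sets, in log2(signal + 16), with B6C3F1, C3H and C57Bl/6 side by side. The Csf1r sets lie near 12.4, 10.5 and 9.22 in the hybrid, and the Ccr2 sets all lie near the floor, with a C3H mean of 6.66 in the set that reads higher in C3H.

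The members did not all move together from array to array, though some of them did. After each strain's mean was subtracted, 12 of the 45 pairs of members had a Pearson r over 0.5 across the 15 arrays. An r below 0 was found for 12 pairs, and the median was 0.20. Every pair over 0.5 lay among Adgre1, Cd68, Csf1r, Folr2, Mrc1 and Lyve1. Every pair below 0 held Retnla, Cx3cr1 or Ccr2. Among Adgre1, Cd68, Csf1r, Folr2 and Mrc1 the lowest r was 0.47 (Adgre1 and Csf1r). The share of all gene pairs over 0.5 was not worked out. The closest pair was Folr2 and Mrc1 (r = 0.93, Spearman rho 0.92, and r = 0.92 without the 2 arrays farthest from the median). Of 12174 other genes, Folr2 was the closest to Mrc1, and Mrc1 the second closest to Folr2. Csf1r and Folr2 (r = 0.83) and Adgre1 and Cd68 (r = 0.82) followed. Retnla was the member apart, with r of -0.35 with Csf1r and -0.33 with Folr2. These arrays share one labelling procedure and their correlations are descriptions.

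**Figure D4:**
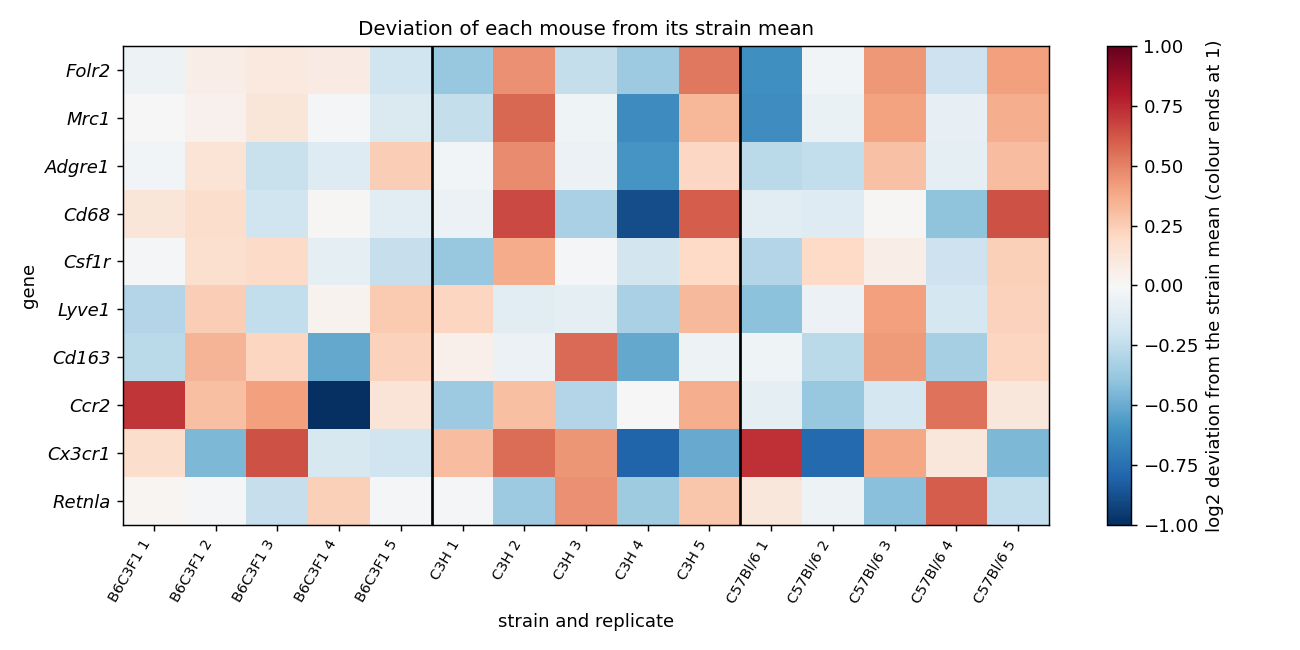
Deviation of each member from its strain mean on each of the 15 arrays, in log2(signal + 16), with members as rows and B6C3F1, C3H and C57Bl/6 arrays as columns; the colour scale ends at 1 in either direction. C3H replicate 4 is the lowest C3H array in 6 of the 10 rows, and Ccr2 on B6C3F1 replicate 4 lies beyond the scale.

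For Csf1r, taken for its bright probe set, the genes most alike after strain means were subtracted were Tmx2 (r = 0.92, rho 0.92), Dpt (r = 0.92, rho 0.93) and Dap (r = 0.91, rho 0.92). For Cx3cr1, the member with the largest difference between the parents, they were Eps8 (r = 0.88, rho 0.86), Usp42 (r = 0.85, rho 0.81) and Fam13a (r = 0.85, rho 0.80). The members' median within-strain SD was 0.36, against 0.25 over all tested genes, with Ccr2 (0.59) and Cx3cr1 (0.56) the most variable and Csf1r (0.24) near the middle.

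Ligands of member receptors, Csf1, Il34, Cx3cl1 and Ccl2 among them, were read from the same arrays, together with further cytokines and growth factors. Of 13 ligands and growth factors, 8 were tested, and 3 rose in C3H against C57Bl/6: Ccl8, a chemokine that draws monocytes, by 1.53 ± 0.23 log2 (adjusted p = 6.44e-05), Il33, an alarmin, by 1.47 ± 0.26 (adjusted p = 0.000431), and Ccl2, the ligand of CCR2, by 0.72 ± 0.23 (adjusted p = 0.0409). In B6C3F1 hearts Ccl8 rose against C57Bl/6 (1.13 ± 0.23, adjusted p = 0.00551) and Ccl2 fell against C3H (-1.16 ± 0.23, adjusted p = 0.00413). The Ccl2 rise in C3H was kept in 16 of 26 alternatives, with adjusted p up to 0.102, and was lost without any 1 of C3H replicates 1, 2, 4 and 5 or C57Bl/6 replicates 1, 3 and 4, while the other ligand calls were kept in all of theirs. Csf1, the ligand of CSF1R, and Cx3cl1, fractalkine itself, did not pass in any comparison: C3H minus C57Bl/6 was -0.13 ± 0.15 (adjusted p = 0.615) and -0.23 ± 0.17 (adjusted p = 0.385). Il34, Il4 and Il13 lay below the filter.

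The other macrophage lists moved in few of their members. Of 15 tested genes of resident macrophages, Vsig4, a complement receptor, rose in C3H against C57Bl/6 (0.95 ± 0.17, 1.93-fold, adjusted p = 0.000417), while Gas6 (-0.60 ± 0.11, adjusted p = 0.000467) and Ccl9 (-0.75 ± 0.16, adjusted p = 0.00223) fell. Vsig4 also rose in B6C3F1 against C57Bl/6 (0.72 ± 0.17, adjusted p = 0.0181). Pf4 rose in B6C3F1 against C3H (0.70 ± 0.18, adjusted p = 0.0251), a call kept in 18 of 27 alternatives. The Pf4 difference was 0.39 with the poly-A term (adjusted p = 0.255) and 0.59 without C3H replicate 4 (adjusted p = 0.0775). Of 21 tested core macrophage genes, Cybb, a subunit of the phagocyte oxidase, rose in C3H against C57Bl/6 (0.52 ± 0.15, adjusted p = 0.0185) and fell in B6C3F1 against C3H (-0.59 ± 0.15, adjusted p = 0.0171), calls kept in 26 and 24 of 27 alternatives. Its rise was lost without C3H replicate 2 (adjusted p = 0.0587) and its fall without B6C3F1 replicate 2 (0.0529). Of 9 transcription factors, 8 monocyte genes and 10 pan-leukocyte genes tested, none passed, and the medians for C3H minus C57Bl/6 were -0.00, -0.08 and -0.35. A list's count and median describe it only, beside 16.9% called among all genes.

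The class II genes of antigen presentation were lower in C3H and, in part, in the hybrid. All 5 tested fell in C3H against C57Bl/6, among them H2-Aa by -2.58 ± 0.24 log2 (5.98-fold lower, adjusted p = 1.66e-07), H2-Eb1 by -2.07 ± 0.18, H2-Ab1 by -1.83 ± 0.21 and H2-DMa by -1.31 ± 0.24. In B6C3F1 hearts 3 of 5 fell against C57Bl/6 and 4 of 5 rose against C3H. The H2-Ab1 fall in B6C3F1 was lost without B6C3F1 replicate 1 (adjusted p = 0.0560), C57Bl/6 replicate 3 (0.0651) or C57Bl/6 replicate 5 (0.0507). The H2-DMa rise against C3H was lost without B6C3F1 replicate 1 (0.0588) or 4 (0.0660), on centring (0.0625) and with the poly-A term, where it was 0.48 (adjusted p = 0.246). The H2-Ab1 rise against C3H was lost with the poly-A term (0.101) and, as was its fall against C57Bl/6 (0.0678), when probe sets open to matching further transcripts were left out (0.173). Summed linear signal of the list was 2866 to 5411 in B6C3F1, 1434 to 3185 in C3H and 7908 to 9469 in C57Bl/6 hearts, without overlap between C57Bl/6 and the other strains. C57BL/6 and C3H carry different alleles of these genes, and whether the probes match both equally was not tested.

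**Figure D5:**
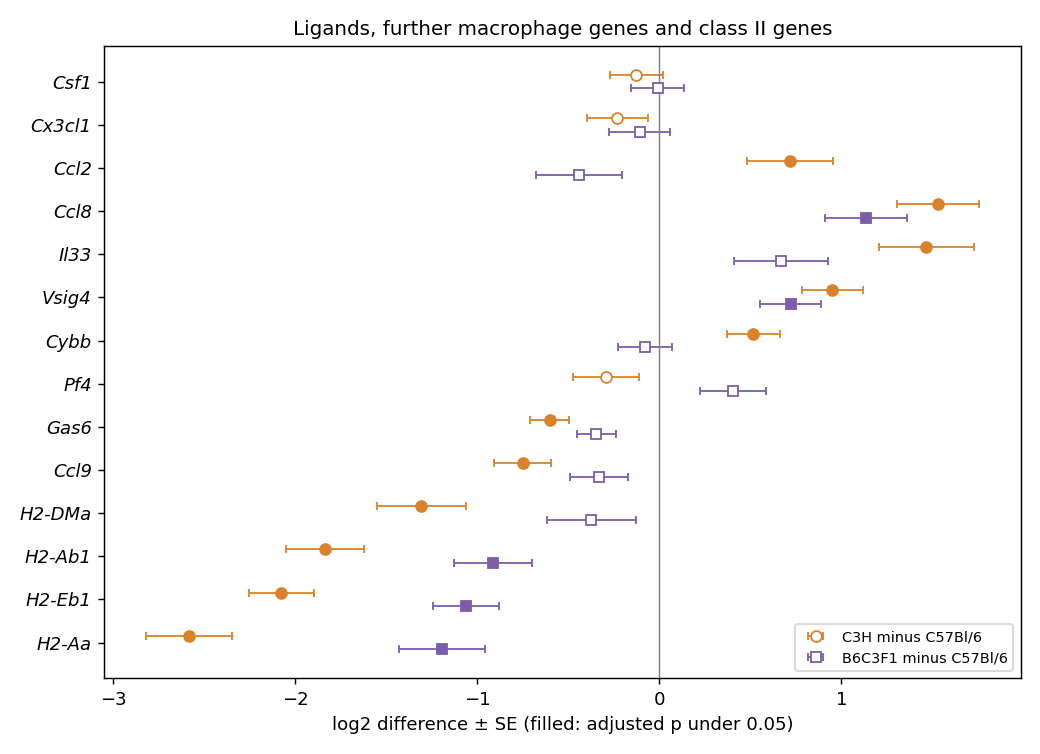
Log2 difference of ligands, further macrophage genes and class II genes, for C3H minus C57Bl/6 (orange circles) and B6C3F1 minus C57Bl/6 (purple squares), with bars of 1 SE and filled points where the test passed. The class II genes lie at the low end, H2-Aa at -2.58, and Ccl8 at 1.53 is the highest C3H point.

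Markers of other cells that a piece of heart apex holds moved in some lists. Of 6 fibroblast markers tested, Dcn, Lum and Tcf21 rose in C3H against C57Bl/6 (0.41, 0.57 and 0.76 log2), Lum in 18 of 27 alternatives, with adjusted p up to 0.134, and the other two in all. The remaining 3 did not pass, with differences of -0.50 for Col1a1, 0.08 for Col1a2 and 0.06 for Pdgfra. In B6C3F1 against C57Bl/6, Lum (0.78, adjusted p = 0.0148) and Tcf21 (0.52, adjusted p = 0.00633) rose. Of 6 markers of blood vessels tested, Cdh5 fell in C3H against C57Bl/6 (-0.56, adjusted p = 0.0130), though not on centring (0.0585) or with the poly-A term (0.0932). Cdh5 also rose in B6C3F1 against C3H (0.70, adjusted p = 0.00674, kept in 26 of 27 alternatives), the comparison in which Retnla, Cx3cr1 and Csf1r rose. The rest of the vessel markers did not pass in that comparison, with differences from -0.01 (Pecam1) to 0.18 (Emcn). Of 2 red cell genes tested, Alas2 fell in C3H against C57Bl/6 (-0.79, adjusted p = 0.0159, and 0.0540 without C57Bl/6 replicate 3). Slc4a1 did not pass (-0.39, adjusted p = 0.425). Of 3 B cell genes tested, Ighm rose in B6C3F1 against C3H (1.20, adjusted p = 0.0449). That call was kept in only 8 of 27 alternatives, with adjusted p up to 0.233. Among the losses were those without C3H replicate 4 (0.111) and without C57Bl/6 replicate 5 (0.0527). Cd79a (0.16, adjusted p = 0.879) and Ms4a1 (-0.30, adjusted p = 0.738) did not pass in that comparison. All 8 cardiomyocyte markers were measured above the filter and none passed in any of the 3 strain comparisons. The summed linear signal of the 10 members was 10164 to 11918 in B6C3F1, 6422 to 10486 in C3H and 7457 to 11093 in C57Bl/6 hearts. The part of cell composition in the member differences was not tested.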

How the data were processed

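RNA of the heart apex was hybridised to Affymetrix mouse arrays. The deposited values are log2 signals, 1 per probe set, and per the submitters' processing notes they come from MAS5 (version not given in the sources used here). The headers do not name the scaling, but the 2% trimmed mean of the linear signal was 500.26 to 500.28 on each array. Of 45096 probe sets, 34940 had 1 gene symbol.

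For each gene the probe set of highest mean was kept, and sets below the 40th percentile (6.03) were left out, which left 12175 genes, all 10 members included. Strains were compared with limma 3.58.1 (R 4.3.3), with a trended empirical Bayes spread over all 15 arrays and Benjamini-Hochberg adjustment. Of 17 member probe sets, 14 passed the filter in a second fit of 20964 sets. The method was tested on simulated data. No depth exists for arrays, so their number limits the precision. Members and lists were chosen with earlier results of these data known. From each further list at most 4 called genes are named, those called in C3H minus C57Bl/6 first, then those called elsewhere. Some uncalled genes are named beside them, and several lists without a call are given by their counts only. Lists of dendritic cell, neutrophil, T cell, NK cell and mast cell genes were also read, and no gene in them passed. Csf1, Il34, Cx3cl1 and Ccl2 are always named. Genes most alike are the 3 with the highest within-strain r.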

Additional observations from a re-analysis of the deposited data

Results flagged for a closer look

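Among 51 groups of 5 arrays (17 probe sets in 3 strains), 2 held an array far from the others by Dixon's test, and chance flags about 1 in 20. Ccr2 read 4.89 log2 on B6C3F1 replicate 4 in its brightest probe set, where the other B6C3F1 arrays read 6.57 to 7.16. Csf1r read 10.3 on B6C3F1 replicate 5 in its second probe set, where the other B6C3F1 arrays read 10.53 to 10.63.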

How the results depend on the processing

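For Retnla, B6C3F1 minus C3H passed in all 27 alternatives (0.90 to 1.18 log2) and B6C3F1 minus the midpoint in all 26 that apply, while B6C3F1 minus C57Bl/6 passed in 24 of 27 and was lost without B6C3F1 replicate 4 (adjusted p = 0.0596), C57Bl/6 replicate 3 (0.0657) or C57Bl/6 replicate 5 (0.0508). Cx3cr1 passed in 22 of 26 in each of its called comparisons, Adgre1 in 24 of 27, Cd68 in 18 of 27 and Csf1r in 17 of 27. With poly-A controls as a term, Adgre1 (-0.37, adjusted p = 0.143), Csf1r (0.34, 0.263) and both Cx3cr1 calls (0.0646 and 0.102) were lost. Over the members' differences, 1017 alternative values kept their side of the threshold, 12 gained a call and 33 lost one. No difference called in the main fit or in the alternative changed sign between them. Differences called in neither could change sign, such as Cd68 in B6C3F1 minus C3H (-0.46 to 0.35 over the alternatives). For 22 named genes of the other lists, alternatives were added after seeing the data. Of these, 2264 kept their side of the threshold, 12 gained a call and 66 lost one. For B6C3F1 minus C57Bl/6, all genes called numbered 328 when centred on each array's median and 352 without a trend, and members called numbered 3 with only the 2 strains, 3 with the replicate block, 2 with the Gapdh term and 3 with the poly-A term. With the poly-A term, members called numbered 1 for C3H minus C57Bl/6 and 1 for B6C3F1 minus C3H. All genes called with that term numbered 1571 for C3H minus C57Bl/6, 395 for B6C3F1 minus C3H and 47 for the midpoint. Replicate numbers did not pair the mice (15 same-numbered pairs, r -0.09 to 0.17, 2 over 0.1). Leaving out 1 array gave 1652 to 2315, 283 to 850, 575 to 1167 and 42 to 235 genes for C3H against C57Bl/6 and for B6C3F1 against C57Bl/6, against C3H and against the midpoint, and 0 to 3, 0 to 2, 1 to 4 and 1 to 1 members. Cx3cr1 and Ccr2 were not tested under the filter at the 60th percentile. Centring gave 1290 higher and 623 lower genes for C3H minus C57Bl/6 (953 and 1100 before), 220 and 108 for B6C3F1 minus C57Bl/6 (281 and 248) and 267 and 430 for B6C3F1 minus C3H (486 and 360), and moved the median of all genes for C3H minus C57Bl/6 to 0.09. The causes were not tested.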
